A study of Mus musculus with 222 samples.

Results

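The synaptonemal complex and its meiotic cohesins were followed through 10 genes, Sycp1, Sycp2, Sycp3, Syce1, Syce2, Tex12, Hormad1, Hormad2, Rec8 and Smc1b, out of the 24391 gene symbols in each of 3 bulk and 2 single-cell count tables. They were chosen for the structure their proteins build, with earlier results of these data known, and all 10 were found in every table. The cells were mouse primordial germ cells (PGCs), the embryonic precursors of eggs and sperm, sorted from gonads by an Oct4-GFP reporter on a mixed C57BL/6;129S1/SvlmJ background. ECKO germ cells are labelled Eed -/-. Eed encodes a core subunit of Polycomb repressive complex 2, which places the repressive H3K27 methyl mark. The dams were OG;Eed fl/fl and the sires carried BC (Blimp1-Cre, which is also active in some cells outside the germ line) with Eed fl/+. Controls came from the same crosses and are labelled wild type, without a statement of the alleles each embryo carried. The bulk groups were E11.5 XX (4 ECKO and 3 Control libraries), E11.5 XY (4 ECKO and 4 Control) and E13.5 XY (3 ECKO and 4 Control). At E12.5 single cells came from 2 embryos for each sex and genotype, here called a and b.

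In meiotic prophase each chromosome is folded along a protein axis made of cohesin rings, among them the meiosis-specific subunits REC8 and SMC1B, and of the axis proteins SYCP2, SYCP3, HORMAD1 and HORMAD2. Paired axes are then zipped together by SYCP1, the transverse filament, whose ends meet in a central element that holds SYCE1, SYCE2 and TEX12. In mouse, XX germ cells begin this programme in the fetal ovary under retinoic acid and STRA8, whereas XY germ cells of the fetal testis arrest and enter meiosis only after birth. Several promoters of such genes are CpG-rich and are kept silent outside the germ line by a Polycomb-type complex that contains MAX, MGA and E2F6.

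The promoters of 4 members are shown because the results below turn on them. Sycp1 and Tex12 passed the test at E13.5, and Hormad1 had the most negative fold change there. Rec8 had a positive fold change in every comparison of ECKO with Control, as did Sycp1, Sycp2, Sycp3 and Syce1. The sequences run 5′ to 3′ from 250 bases before to 50 after the RefSeq start, on GRCm38.p6: Sycp1 at chr3:102936051-102936350 (minus strand), Tex12 at chr9:50561219-50561518 (minus), Rec8 at chr14:55617916-55618215 (plus) and Hormad1 at chr3:95559427-95559726 (plus). Capitals mark matches on either strand to CACGTG (the E-box letters bound by MAX-containing complexes), TCCCGC (letters bound by E2F factors) or CNCCTCAG (letters reported for STRA8), and no 2 matches overlap in these windows.
Sycp1: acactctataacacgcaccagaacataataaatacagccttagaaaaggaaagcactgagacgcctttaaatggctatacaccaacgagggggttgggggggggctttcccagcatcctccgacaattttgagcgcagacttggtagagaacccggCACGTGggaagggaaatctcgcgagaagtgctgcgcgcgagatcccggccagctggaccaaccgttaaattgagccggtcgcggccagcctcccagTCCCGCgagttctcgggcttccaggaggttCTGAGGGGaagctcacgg
Tex12: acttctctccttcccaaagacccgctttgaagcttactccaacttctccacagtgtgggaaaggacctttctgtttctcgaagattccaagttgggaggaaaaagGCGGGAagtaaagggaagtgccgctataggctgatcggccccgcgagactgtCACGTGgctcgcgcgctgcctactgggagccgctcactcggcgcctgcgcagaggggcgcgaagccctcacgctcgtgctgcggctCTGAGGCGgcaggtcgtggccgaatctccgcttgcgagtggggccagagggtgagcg
Rec8: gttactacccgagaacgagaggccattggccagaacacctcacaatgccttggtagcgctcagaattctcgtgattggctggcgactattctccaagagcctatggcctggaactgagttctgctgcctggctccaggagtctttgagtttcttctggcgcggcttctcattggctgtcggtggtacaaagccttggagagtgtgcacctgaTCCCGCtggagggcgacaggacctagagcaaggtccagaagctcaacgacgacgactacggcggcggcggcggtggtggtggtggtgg
Hormad1: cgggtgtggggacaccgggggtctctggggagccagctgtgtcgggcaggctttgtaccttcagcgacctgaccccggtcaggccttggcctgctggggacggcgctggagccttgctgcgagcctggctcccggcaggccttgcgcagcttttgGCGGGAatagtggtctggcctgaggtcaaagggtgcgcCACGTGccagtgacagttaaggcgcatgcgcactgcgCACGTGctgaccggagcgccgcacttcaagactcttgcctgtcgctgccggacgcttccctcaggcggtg
The E-box letters were found in the windows of 5 of the 10 members (Sycp1, Sycp3, Syce2, Tex12 and Hormad1), against 8.09% of the 27025 genes with a RefSeq window. TCCCGC stood in 7 of 10, all but Sycp2, Syce1 and Hormad2, against 22.05% of genes. CNCCTCAG was present in Sycp1, Syce2, Tex12 and Hormad2, against 9.12% of genes. The member windows held 10 to 33 CpG dinucleotides with a median of 19.5, whereas the median over all genes was 8. Rec8 carried TCCCGC 38 bases before its start and no E-box letters, while Hormad1 carried the E-box letters 57 and 20 bases before its start and had values opposite to those of Sycp1 and Tex12 at E13.5. These matches describe letters only.

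Library totals were 415291 to 7559310 counts in E11.5 XX, 8607927 to 14974853 in E11.5 XY and 4903492 to 12425911 in E13.5 XY, so the E11.5 XX values of low genes are the least precise. At E12.5, 127 of 192 cells had at least 50000 counts and 1500 genes and were kept, 13 to 22 an embryo. Eed was lower in all ECKO libraries and embryos than in any Control of the same sex and stage, but Eed counts remained in each of them. The log2 fold change was -3.33 at E13.5 (adjusted p = 0.0107, edgeR) and -1.62 in E11.5 XY (adjusted p = 0.0118). It did not pass in E11.5 XX (-1.88, adjusted p = 0.0567), E12.5 XX (-1.75, adjusted p = 0.353) or E12.5 XY (-1.70, adjusted p = 0.738). Germ cell markers (Pou5f1, Ddx4, Kit and 7 others) were detected in every group. Their summed level was 1516 to 2730 CPM (counts scaled to library size) in E13.5 ECKO, against 3313 to 3945 CPM in E13.5 Control, and 1089 to 1692 against 3005 to 3032 CPM in E12.5 XX, and 1907 to 1973 against 2732 to 3046 CPM in E12.5 XY. Markers of interstitial cells summed to 10.3 to 67.8 CPM in E13.5 ECKO against 2.50 to 36.5 CPM in Control, and 2 E11.5 libraries stood apart, XX ECKO 4 with 1149 CPM and XY ECKO 4 with 446 CPM. Of 5 interstitial markers tested at E13.5, 1 was called higher in ECKO, Pdgfra (log2 fold change 4.65, adjusted p = 0.0426, edgeR). Of 10 germ cell markers 1 was called lower there, Prdm14 (-2.18, adjusted p = 0.0335). Among all 12336 genes tested, 604 were called in either direction. Supporting cell markers summed to 24.6 to 55.3 CPM in E13.5 ECKO against 10.1 to 295 CPM in Control, to 92.6 and 157 CPM in E12.5 XX ECKO against 45.3 and 29.6 CPM in Control, and to 44.1 and 18.1 CPM in E12.5 XY ECKO against 68.6 and 38.4 CPM in Control. The part of other cells in the results below was not tested. In bulk libraries, fewer cells of a type and less RNA per cell cannot be told apart.

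**Figure D1:**
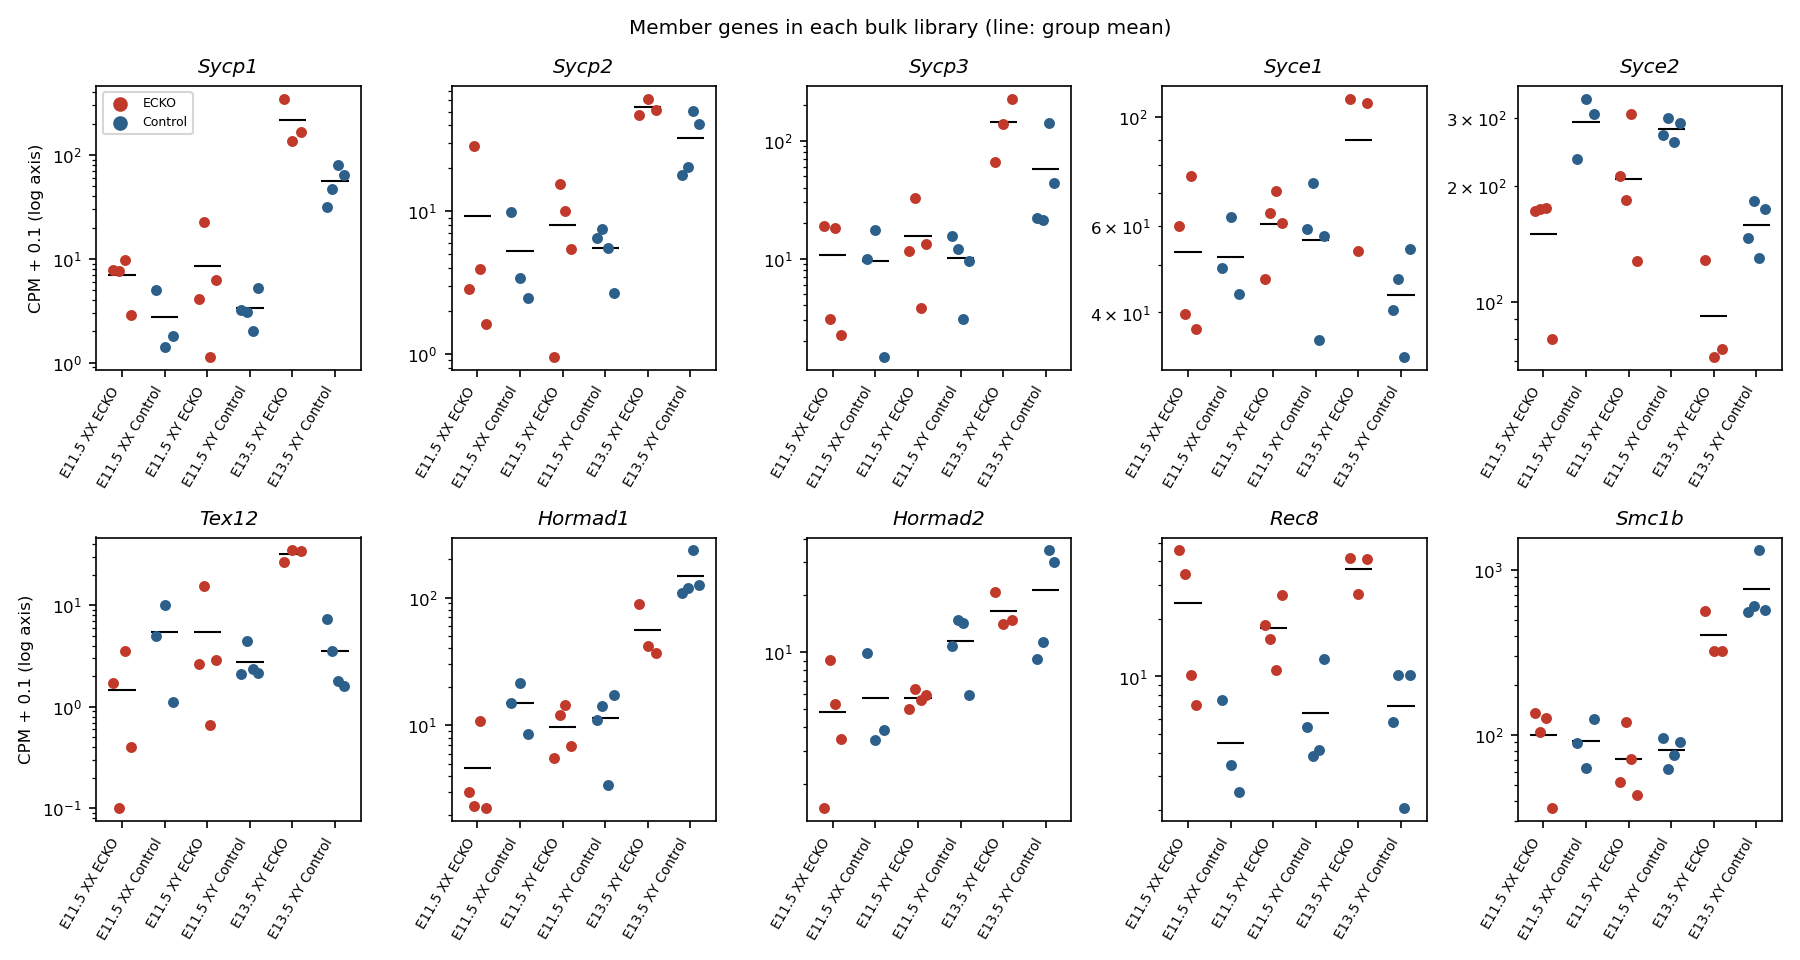
Level of each of the 10 genes in every bulk library, as CPM plus 0.1 on a log axis that differs between panels, with ECKO in red and Control in blue and a line at the group mean. The 3 E13.5 ECKO points of Sycp1, Tex12 and Rec8 lie above all 4 Control points, and those of Hormad1 and Syce2 lie below them. How many of all genes separate in this way was not counted.

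The clearest departure was at E13.5 in XY germ cells, where Sycp1 and Tex12 rose and Rec8 was higher without passing the test, while Hormad1 had the most negative fold change. Of the 10 members, 2 were called higher at a Benjamini-Hochberg adjusted p under 0.05 in edgeR's quasi-likelihood test, against 2.99% of the 12336 genes tested. The median log2 fold change of the members was 0.87, against 0.05 over all genes. An unadjusted p under 0.05 was reached by 7 of the 10, against 22.7% of all genes, and 6 of the 10 had positive values. Since the members were chosen with earlier results of these data known, their shares beside those of all genes are descriptions only.

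Sycp1, which encodes the transverse filament, had 347, 136 and 167 CPM in E13.5 ECKO libraries 1 to 3, against 31.4, 46.7, 80.2 and 64.2 CPM in Controls 1 to 4. The ECKO mean was 216 ± 114 CPM and the Control mean 55.6 ± 21.2 CPM (SD, n = 3 and 4). Its log2 fold change was 1.96 (SE 0.44, adjusted p = 0.0285, edgeR). No ECKO value overlapped the Controls, and ECKO 1 was the highest. How many of all genes separate between bulk groups in this way was not counted. Such separations, here and below, are therefore given as descriptions only. Among the central element genes, Tex12 had 26.3, 34.6 and 34.0 CPM in ECKO, against 7.28, 3.43, 1.68 and 1.49 CPM in Control. Its 3 ECKO libraries lay close together and all stood above the highest Control. The log2 fold change was 3.17 (SE 0.73, adjusted p = 0.0305). Both calls depended on the libraries in the fit: leaving out Control 2, Control 4, ECKO 2 or ECKO 3 left no member called, leaving out Control 1 left Tex12 alone, and a fit with replicate number as a block left 0. Tex12 lies within the span of Il18 in RefSeq, and reads from the shared stretch cannot be told apart. Il18, listed at 0 to 3.63 CPM in ECKO and 0 to 5.33 CPM in Control, was too low to be tested.

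The other central element genes did not pass. Syce1 had 109, 53.2 and 107 CPM in ECKO, against 40.4, 46.6, 32.4 and 53.8 CPM in Control, and a fitted log2 change of 1.04 (SE 0.40, adjusted p = 0.145). ECKO 2 fell within the Control range and the other 2 ECKO libraries above it. Syce2 went the other way, with 128, 71.8 and 75.3 CPM in ECKO, against 146, 182, 130 and 174 CPM in Control, for a fitted log2 change of -0.78 (adjusted p = 0.198). Gcdh, which overlaps part of Syce2, was at -1.58 (adjusted p = 0.252). The highest ECKO value of Syce2 lay just under its lowest Control value. The genes that encode partners in a single central element thus had values on both sides of Control.

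Among the axis genes, Sycp3, which forms the bundled core of the axis, had 65.3, 140 and 226 CPM in ECKO, against 22.1, 21.1, 142 and 43.7 CPM in Control. Control 3 overlapped the ECKO libraries and the other 3 Controls did not. The log2 fold change was 1.30 (SE 0.64, adjusted p = 0.248), and without Control 3 it was 2.37 (adjusted p = 0.0266, with a range of 0.0266 to 0.622 over its alternatives). Chpt1, a gene that overlaps part of Sycp3 in RefSeq, was at -2.82 (adjusted p = 0.0509). Sycp2, the partner of SYCP3, had 47.5, 61.3 and 51.4 CPM in ECKO, against 17.8, 20.2, 50.5 and 41.0 CPM in Control (log2 fold change 0.70, adjusted p = 0.416). Controls 1, 2 and 4 stood below all ECKO libraries, and Control 3 lay among them.

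Hormad1, an axis gene whose protein recruits the pairing checkpoint, had 88.7, 41.4 and 36.6 CPM in ECKO, against 108, 118, 234 and 125 CPM in Control. The groups did not overlap, and the highest value belonged to Control 3. Its log2 fold change was -1.39 (SE 0.44, adjusted p = 0.0869), and without ECKO 1 it was -1.98 (adjusted p = 0.0114, with a range of 0.0114 to 0.263 over its alternatives). Hormad2 had 20.7, 14.1 and 14.7 CPM in ECKO, between Controls 1 and 2 (9.13 and 11.2 CPM) and Controls 3 and 4 (34.6 and 29.9 CPM). Its log2 fold change was -0.38 (adjusted p = 0.776).

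The cohesin subunits also differed from each other. Rec8, the kleisin that closes the meiotic ring, had 41.6, 27.0 and 40.9 CPM in ECKO, against 5.65, 10.1, 1.94 and 10.03 CPM in Control. Every ECKO value was above every Control value. Its fitted log2 change of 2.39 (SE 0.66) reached an adjusted p of 0.0581 in edgeR and of 0.00198 in DESeq2, and the alternatives gave 2.15 to 2.89 with adjusted p of 0.00198 to 0.200. Smc1b, the meiotic form of the SMC1 arm, had 561, 320 and 322 CPM in ECKO, against 557, 607, 1312 and 574 CPM in Control (log2 fold change -0.92, adjusted p = 0.195). ECKO 2 and 3 lay below all Controls, ECKO 1 lay within their range, and Control 3 stood far above the rest. Without ECKO 1 the value was -1.32 (adjusted p = 0.0423, with a range of 0.0423 to 0.443 over its alternatives). Fam118a, which overlaps part of Smc1b, was at 0.56 (adjusted p = 0.720).

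**Figure D2:**
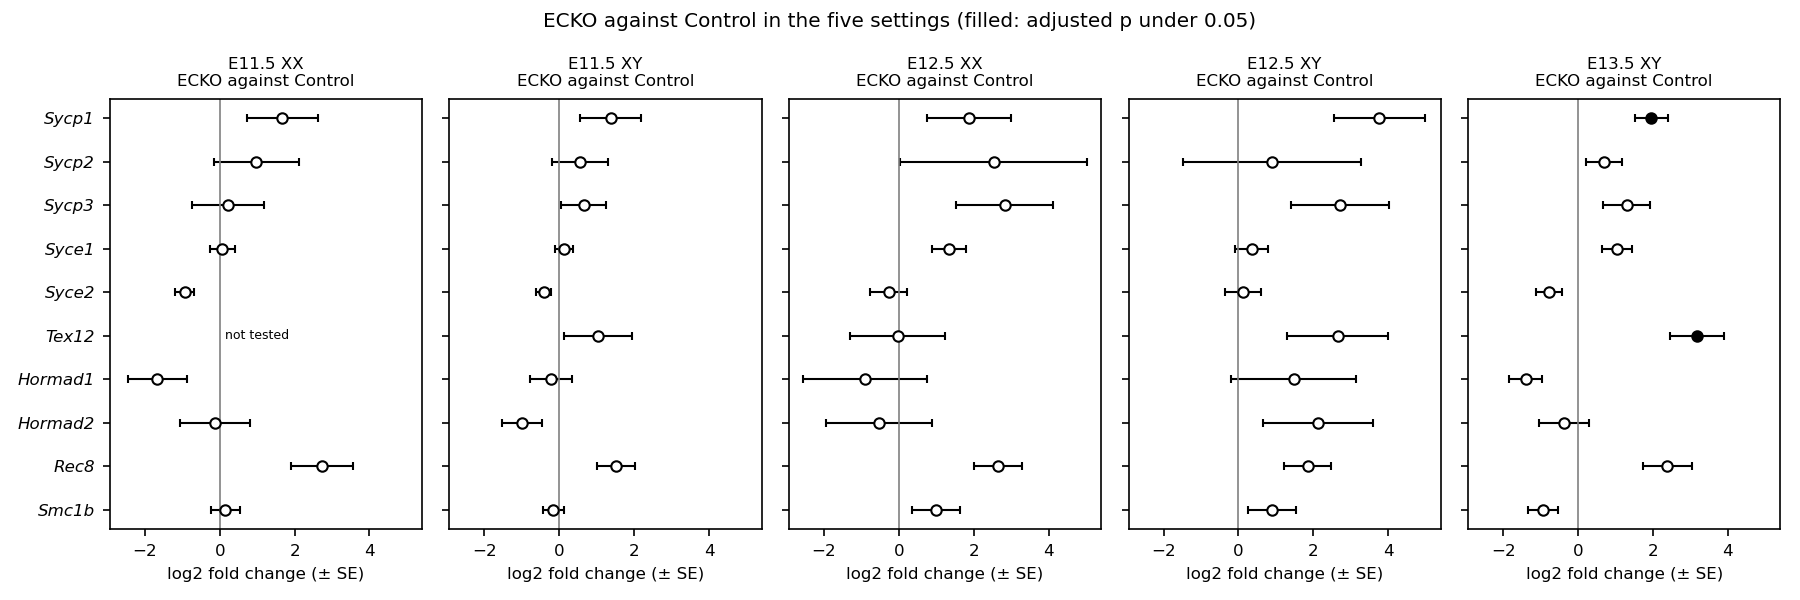
Log2 fold change of ECKO against Control (x axis, bars are SE) for the 10 genes in the 5 settings, with filled points at an adjusted p under 0.05. Sycp1, Sycp2, Sycp3, Syce1 and Rec8 lie right of 0 in all 5 panels, and the filled points are Sycp1 (1.96) and Tex12 (3.17) at E13.5.

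The ordinary course of these genes in XY germ cells was read from the Controls alone, E13.5 against E11.5. Stage coincides with the deposited table, so the effects of stage and of table cannot be told apart, and the E13.5 Controls are the same libraries as above. Of the 10 members 5 rose, against 15.8% of the 14447 genes tested, and 1 fell, against 15.7%. Sycp1 rose to 31.4 to 80.2 CPM at E13.5, against 1.94 to 5.08 CPM at E11.5 (log2 fold change 4.08, adjusted p = 7.2e-05). Hormad1 rose by 3.69, Smc1b by 3.24, Sycp2 by 2.58 and Sycp3 by 2.53 on the log2 scale, each with groups that did not overlap. The Sycp3 call was lost without E13.5 Control 3 (1.55, adjusted p = 0.0542). Syce2 was already at 260 to 300 CPM at E11.5 and fell by 0.82 on the log2 scale (adjusted p = 0.0173), a call lost without E11.5 Control 2 (adjusted p = 0.0561).

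Tex12 (log2 fold change 0.40, adjusted p = 0.745), Rec8 (0.13, adjusted p = 0.888), Syce1 (-0.37, adjusted p = 0.376) and Hormad2 (0.90, adjusted p = 0.223) were not called with stage. In Controls, Rec8 had 1.94 to 10.1 CPM at E13.5 and 3.72 to 12.3 CPM at E11.5. Tex12 had 1.49 to 7.28 CPM at E13.5 and 1.99 to 4.38 CPM at E11.5. Set beside the ECKO effect at E13.5, the members fell into separate patterns: Sycp1 rose with stage and further in ECKO, Tex12 rose in ECKO without a stage call, and Hormad1 and Smc1b rose with stage and had negative values in ECKO. Syce2 fell with stage and also had a negative value in ECKO.

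At E11.5 in XY germ cells none of the 10 members was called, against 2.13% of 12497 genes. An unadjusted p under 0.05 in edgeR was reached by 1 of the 10, Rec8, against 16.1% of all genes. DESeq2 also called Rec8 alone, among 759 genes in all. Rec8 had 18.5, 15.6, 10.8 and 26.5 CPM in ECKO, against 5.31, 3.72, 4.01 and 12.3 CPM in Control. Only Control 4 reached into the ECKO range. The log2 fold change was 1.51 (SE 0.51, adjusted p = 0.145 in edgeR and 0.0414 in DESeq2, the lowest of its alternatives, which reached 0.305). Sycp1 had 4.03, 22.3, 1.04 and 6.14 CPM in ECKO, against 3.13, 2.95, 1.94 and 5.08 CPM in Control (log2 fold change 1.38, adjusted p = 0.432). ECKO 2 was the highest library for Sycp1, Tex12 (15.4 CPM) and Sycp3 (32.8 CPM), and without it Sycp1 had a log2 fold change of 0.21, Tex12 of -0.41 and Sycp3 of -0.052. Among the members with negative values, Syce2 had 212, 184, 307 and 127 CPM in ECKO, against 270, 300, 260 and 291 CPM in Control (-0.42, adjusted p = 0.317). ECKO 3 was above every Control and the other 3 ECKO libraries were below. Hormad2 had 4.88, 6.31, 5.47 and 5.83 CPM in ECKO, against 10.7, 14.8, 14.2 and 5.81 CPM in Control (-0.996, adjusted p = 0.370), and the low Control 4 made the groups overlap. Hormad1 (-0.22), Smc1b (-0.16), Syce1 (0.13) and Sycp2 (0.56) also overlapped. Stra8, by comparison, was called here (log2 fold change 4.82, adjusted p = 0.0127), with 6.44 to 15.2 CPM in ECKO and 0.07 to 0.95 CPM in Control.

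In E11.5 XX germ cells 9 members could be tested, Tex12 being too low, and 0 were called, against 0.172% of 11058 genes. An unadjusted p under 0.05 was reached by 2, Rec8 and Syce2, against 13.9% of all genes. DESeq2 called both, among 315 genes in all. Rec8 had 45.6, 34.4, 10.1 and 7.03 CPM in ECKO, against 7.39, 3.33 and 2.38 CPM in Control. ECKO 4, the library with the highest interstitial marker sum, overlapped Control 1, whose value rests on 3 counts. Its log2 fold change was 2.74 (SE 0.83, adjusted p = 0.177). Syce2 had 171, 174, 175 and 80.1 CPM in ECKO, against 234, 336 and 307 CPM in Control, without overlap (log2 fold change -0.94, SE 0.26, adjusted p = 0.143). Hormad1 had 2.89, 2.24, 10.8 and 2.14 CPM in ECKO, against 14.8, 21.3 and 8.51 CPM in Control (-1.67, adjusted p = 0.369), and ECKO 3 alone reached the Control range. Sycp1 was at 1.67 (adjusted p = 0.458), with ECKO 4 below Control 1. Smc1b (0.15), Syce1 (0.07), Hormad2 (-0.13) and Sycp3 (0.23) lay near 0 with overlapping groups. Stra8 was not called here (4.14, adjusted p = 0.122), with 63.0, 51.5, 24.3 and 1.83 CPM in ECKO, against 2.46, 2.66 and 1.36 CPM in Control. ECKO 4 lay within the Control range.

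At E12.5 the counts of kept cells were summed per embryo, which gave 2 embryos a group and one joint fit over the 8 embryos. In XX germ cells 0 of the 10 were called by edgeR, against 0.0215% of 13956 genes. An unadjusted p under 0.05 was reached by 2, Rec8 and Syce1, against 12.3% of all genes. DESeq2 called the same 2, among 917 genes in all. Rec8 had 83.1 and 77.7 CPM in ECKO embryos a and b, against 14.1 and 11.7 CPM in Control (log2 fold change 2.64, SE 0.64, adjusted p = 0.160). Syce1 had 218 and 270 CPM in ECKO, against 113 and 81.0 CPM in Control (1.33, adjusted p = 0.288). In ECKO embryo b 1 cell gave 54.9% of the Syce1 counts. The median over cells was 216 and 69.4 CPM in ECKO a and b, against 117 and 75.1 CPM in Control. In the sums, Rec8 and Syce1 showed each ECKO embryo above both Controls. Sycp3 had 15.7 and 22.5 CPM in ECKO, against 4.44 and 0.96 CPM in Control (2.82, adjusted p = 0.419), and Sycp1 had 16.3 and 15.1 CPM in ECKO, against 7.10 and 1.47 CPM in Control (1.87, adjusted p = 0.508). Smc1b had 37.2 and 79.7 CPM in ECKO, against 35.3 and 23.7 CPM in Control (0.99, adjusted p = 0.543). In ECKO embryo b 1 cell gave 56.9% of the Smc1b counts. The median over cells was 30.9 and 14.1 CPM in ECKO a and b, against 21.3 and 14.2 CPM in Control. The summed ECKO values of Sycp3, Sycp1 and Smc1b all stood above the Controls, by little for Smc1b in embryo a. The share of all genes whose embryo sums separate in this way was not counted. With 2 embryos a group, the separation is therefore given as a description only. On the other side were Syce2, with 213 and 314 CPM in ECKO, against 317 and 322 CPM in Control (-0.27, adjusted p = 0.883), and Hormad1, with 3.17 and 1.68 CPM in ECKO, against 3.89 and 5.26 CPM in Control (-0.91, adjusted p = 0.886). Hormad2 (-0.54, adjusted p = 0.932) and Tex12 (-0.03) were also negative, with overlapping groups. Sycp2 was at 2.53 (adjusted p = 0.721), with means of only 0.72 CPM in ECKO and 0.12 CPM in Control. Of the 10 fold changes 6 were positive. Germ cell markers were lower and supporting cell markers higher in both XX ECKO embryos than in the Controls, as given above. ECKO embryo b also carried an interstitial marker sum of 275 CPM, against 2.50 in ECKO embryo a and 0.14 and 0.18 in the Controls.

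In E12.5 XY germ cells all 10 fold changes were positive, although those of Sycp2 (-1.75) and Syce2 (-0.58) were negative without ECKO embryo a, and 0 were called by edgeR, against 0.00717% of 13956 genes. By an unadjusted p under 0.05 the count was 2, Sycp1 and Rec8, against 6.31% of all genes. DESeq2 called 1, Sycp1, among 326 genes in all. Sycp1 had 52.2 and 11.53 CPM in ECKO, against 1.55 and 3.12 CPM in Control (log2 fold change 3.76, SE 1.22, adjusted p = 0.679). In ECKO embryo a, a single cell gave 57.6% of the Sycp1 counts. The same cell, in which 9 members were present, gave the largest share of the Sycp2 (72.2%), Sycp3 (56.0%), Tex12 (66.4%), Hormad1 (78.4%) and Smc1b (49.8%) counts of that embryo. Rec8 had 37.1 and 35.3 CPM in ECKO, against 5.98 and 14.02 CPM in Control (1.85, adjusted p = 0.719). Tex12 had 14.3 and 18.2 CPM in ECKO, against 1.84 and 3.32 CPM in Control (2.65, adjusted p = 0.768), and 1 cell gave 85.3% of its counts in ECKO b. Hormad2 had 10.7 and 8.14 CPM in ECKO, against 1.40 and 2.87 CPM in Control (2.13, adjusted p = 0.799). Hormad1 had 5.80 and 3.94 CPM in ECKO, against 1.77 and 1.73 CPM in Control (1.47, adjusted p = 0.918), but 1 cell gave 78.4% of its counts in ECKO a and 1 gave 56.1% in ECKO b. The remaining fold changes were 2.71 for Sycp3, 0.90 for Smc1b, 0.89 for Sycp2, 0.35 for Syce1 and 0.13 for Syce2. Interstitial markers summed to under 1 CPM in all XY embryos, while germ cell markers were lower in both ECKO embryos than in either Control.

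**Figure D3:**
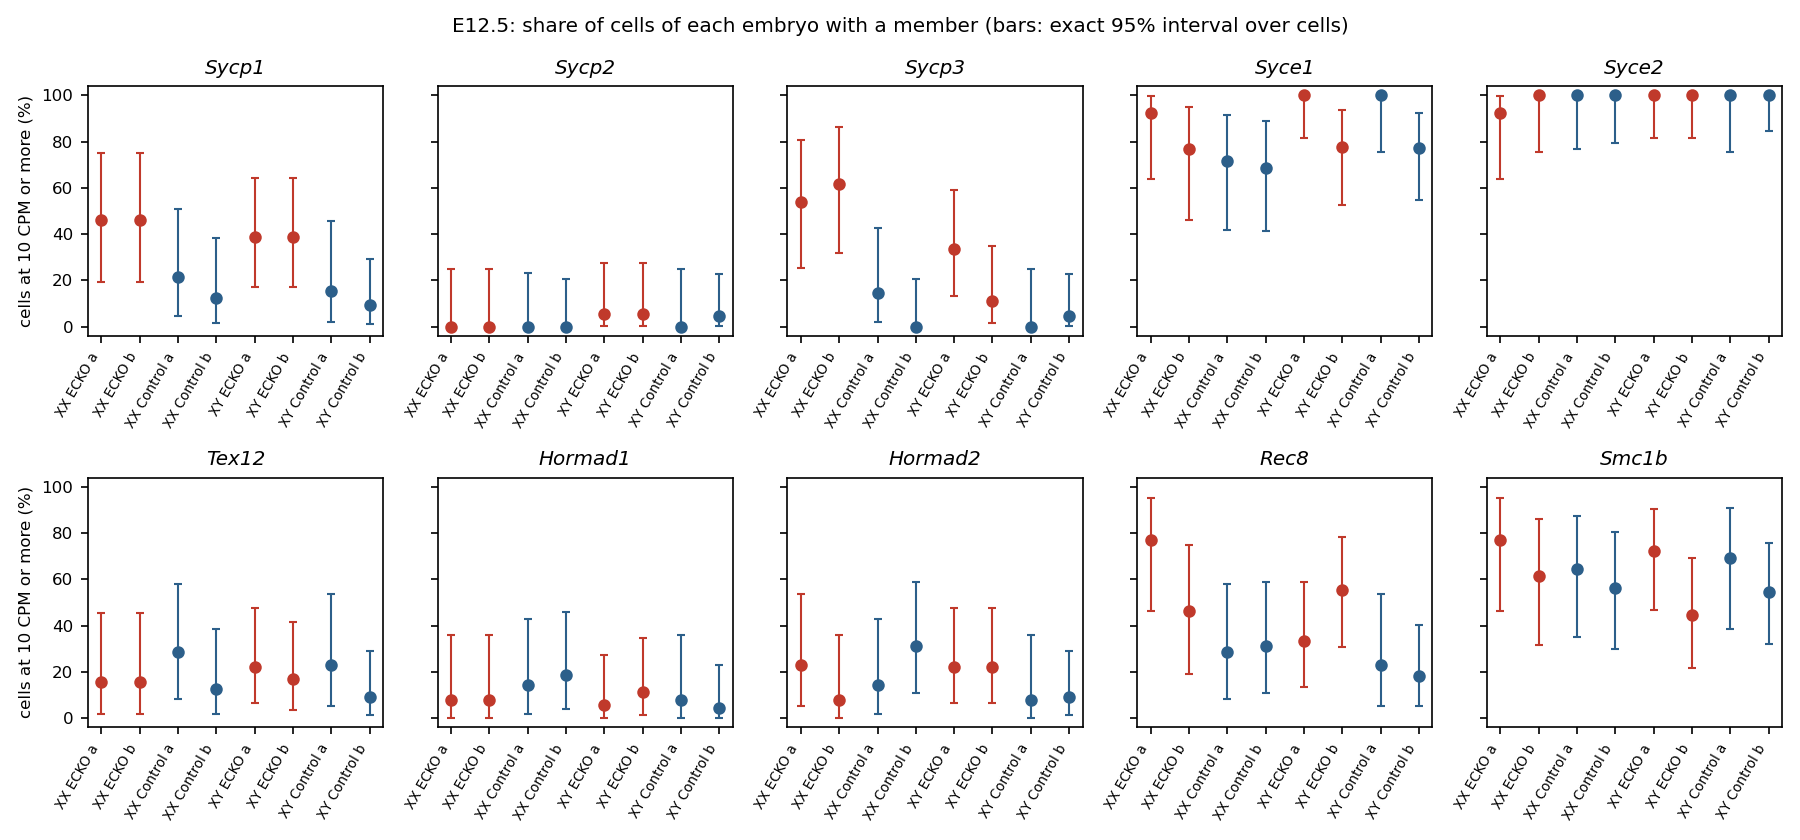
Percentage of kept E12.5 cells of each embryo in which a gene stood at 10 CPM or more (y axis), with exact Clopper-Pearson 95% intervals over cells, ECKO in red and Control in blue. Sycp1, Sycp3 and Rec8 have each ECKO embryo above both Control embryos in both sexes, while Syce2 is near 100% throughout.

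The single cells showed whether a level came from many cells or a few. A gene was counted as present at 10 CPM or more, the intervals cover the sampling of cells only, and with 2 embryos a group no test was made, since the smallest p that an exact two-sided permutation test of 2 against 2 embryos allows is 0.333. Cells with Rec8 numbered 10 of 13 in XX ECKO embryo a and 6 of 13 in embryo b, whereas the XX Controls held 4 of 14 and 5 of 16. Among XY embryos, Rec8 cells made up 6 of 18 and 10 of 18 of the ECKO cells, and 3 of 13 and 4 of 22 of the Control cells. Each ECKO share was higher than either Control share of the same sex, but the intervals of single embryos were wide, for example 33.3% with 13.3 to 59.0% in XY ECKO a and 23.1% with 5.04 to 53.8% in XY Control a.

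For Sycp1, both XX ECKO embryos had 6 such cells of 13, whereas the XX Controls had 3 of 14 and 2 of 16. Both XY ECKO embryos had 7 Sycp1 cells of 18, whereas the XY Controls had 2 of 13 and 2 of 22. Cells with Sycp3 numbered 7 of 13 in XX ECKO embryo a and 8 of 13 in embryo b. The XX Controls held 2 of 14 and 0 of 16, and the exact interval of the 0 reaches up to 20.6%. Among XY embryos, ECKO a had 6 Sycp3 cells of 18 and ECKO b 2 of 18, whereas Control a had 0 of 13 (exact interval up to 24.7%) and Control b 1 of 22. For Rec8, Sycp1 and Sycp3 each ECKO embryo thus had a larger share of cells with the gene than either Control of its sex. The highest cell for Sycp3 had 133 and 356 CPM in the XX ECKO embryos, against 14.9 and 3.39 CPM in XX Control, and 91.9 and 16.5 CPM in XY ECKO, against 6.94 and 23.8 CPM in XY Control. Those XX ECKO cells had only 407526 and 70194 counts in total, against 1474515 and 1181648 in the XX Control cells, so their heights are less precise. For Sycp1 the highest XX cells had 56.0 and 79.7 CPM in ECKO, against 92.1 and 21.3 CPM in Control, so the XX groups overlapped in the height of single cells.

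The other members ranged from a gene present in nearly every cell to genes present in few. Syce2 was present in all kept cells but 1, a cell of XX ECKO a. Syce1 cells numbered 12 of 13 in XX ECKO a and 10 of 13 in XX ECKO b, whereas the XX Controls had 10 of 14 and 11 of 16. The XY ECKO embryos had 18 of 18 and 14 of 18 Syce1 cells, and the XY Controls 13 of 13 and 17 of 22. Smc1b cells numbered 10 of 13 in XX ECKO a and 8 of 13 in XX ECKO b, whereas both XX Controls had 9, of 14 and of 16 cells. In XY the Smc1b shares overlapped, with 72.2% and 44.4% in ECKO and 69.2% and 54.5% in Control. Tex12, Hormad1 and Hormad2 were each present in 1 to 5 cells of any embryo. Sycp2 was at 10 CPM in no XX cell, in 1 cell of each XY ECKO embryo and in 1 cell of XY Control b.

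Over the 10 members, both ECKO embryos had a larger share of cells than both Controls for 4 genes in XX (Sycp1, Sycp3, Syce1 and Rec8), against 20.1% of the 14052 genes present in any XX cell. In XY this held for 5 genes (Sycp1, Sycp2, Sycp3, Hormad2 and Rec8), against 15.2% of 13985 genes, and for Sycp2 it rests on 1 cell in each ECKO embryo. Hormad1 in XX was present in 1 of 13 cells (7.69%) of each ECKO embryo, against 2 of 14 (14.3%) and 3 of 16 (18.8%) in Control. The share of all genes that were lower in both ECKO embryos was not counted. After every cell was thinned to 50000 counts, with any count taken as presence, larger shares were counted for 4 genes in XX, against 20.4% of all genes, and 3 in XY, against 15.3%. Kept XX ECKO cells had median totals of 1998464 and 1422489 counts in embryos a and b, against 1981852 and 1638230 in XX Control. In XY the medians were 1121573 and 1061912 in ECKO, against 1087623 and 990910 in Control. Detected genes had medians of 8011 and 6696 in XX ECKO a and b, against 6002.5 and 6824.5 in XX Control. The XY medians were 7468 and 6796 genes in ECKO, against 7213 and 7328.5 in Control. XX ECKO a thus had more genes of any kind per cell than either XX Control.

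**Figure D4:**
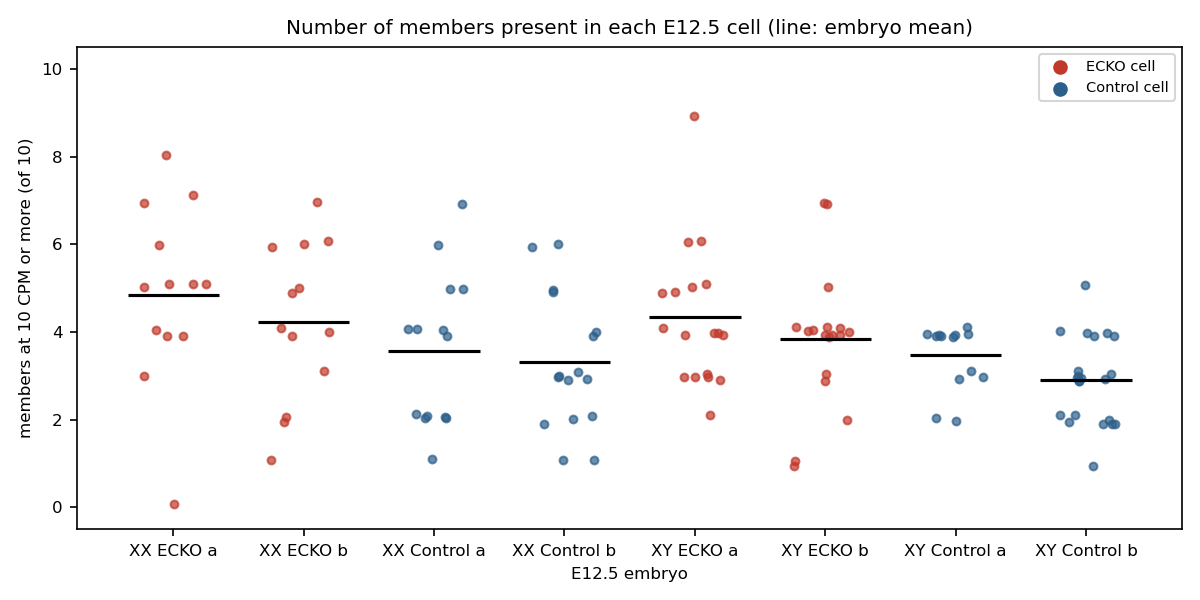
Number of the 10 genes at 10 CPM or more in each kept E12.5 cell (y axis, points jittered), by embryo, with a line at the embryo mean and ECKO in red and Control in blue. The means of the ECKO embryos are 4.85 and 4.23 in XX and 4.33 and 3.83 in XY, each above both Controls of its sex, while the medians overlap.

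Single cells held 0 to 9 of the 10 genes. The mean was 4.85 and 4.23 in the XX ECKO embryos, against 3.57 and 3.31 in XX Control, and 4.33 and 3.83 in the XY ECKO embryos, against 3.46 and 2.91 in XY Control. The medians overlapped, at 5 and 4 in XX ECKO against 4 and 3 in XX Control, and at 4 and 4 in XY ECKO against 4 and 3 in XY Control. After thinning these means were 4.69 and 4.0 against 3.71 and 3.06 in XX, and 4.39 and 3.50 against 3.38 and 2.82 in XY. Cells with at least 5 members numbered 8 of 13 in XX ECKO a and 6 of 13 in XX ECKO b, whereas both XX Controls had 4, of 14 and of 16 cells. The XY ECKO embryos had 7 and 3 such cells of 18 each, and the XY Controls 0 of 13 and 1 of 22. No cell held all 10.

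Presence of the members was then set beside Stra8, the retinoic acid target that starts meiotic prophase. Among XX ECKO cells, 13 of 13 in embryo a and 12 of 13 in embryo b had Stra8, so all Sycp1 cells (6 and 6) and all Rec8 cells (10 and 6) also had Stra8. The XY ECKO embryos had 1 and 4 Stra8 cells of 18 each. Of the 7 Sycp1 cells in each of these embryos 0 and 1 also had Stra8, and of the 6 and 10 Rec8 cells 0 and 3 did. These counts depend on the 10 CPM threshold: with Stra8 taken from 1 CPM, 5 and 4 cells had it, among them 3 and 1 of the Sycp1 cells and 1 and 3 of the Rec8 cells. In XY Control, Stra8 had 0 counts in all kept cells, while Sycp1 was present in 2 of 13 and 2 of 22 and Rec8 in 3 of 13 and 4 of 22. Rec8 and Sycp1 stood together in 3 and 5 cells of the XY ECKO embryos and in 0 and 0 of the XY Control embryos. Each gene alone was present in a larger share of the ECKO cells, which by itself raises such joint counts. Whether the 2 genes share cells more often than their single shares give was not tested.

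Whether the ECKO effect differed between sexes or stages was tested directly, and no member passed. Between XX and XY at E11.5 the edgeR interaction called 0 members and 0.00% of 14185 genes, with 0 members and 747 genes at an unadjusted p under 0.05, while DESeq2 called 1 gene and no member. Between XX and XY at E12.5 it again called 0 members and 0.00% of 13956 genes, with 0 members and 681 genes at an unadjusted p under 0.05, and DESeq2 called 133 genes and no member. Between E13.5 and E11.5 in XY it called 0 members, against 1.20% of 14447 genes. An unadjusted p under 0.05 was reached by 1 member (Syce1), against 17.6% of all genes. DESeq2 called 850 genes and no member. The Tex12 effect was 2.18 larger on the log2 scale at E13.5 than at E11.5 (SE 1.17, adjusted p = 0.338), and that of Rec8 0.90 larger (SE 0.84, adjusted p = 0.617). The Hormad1 effect differed by -1.17 between the stages (SE 0.65, adjusted p = 0.362).

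Other genes of meiotic chromosomes were described from listed groups. Of 7 tested genes listed beside the synaptonemal complex and axis, 2 rose in E13.5 ECKO, against 2.99% of all genes, and 0 fell, with a list median of 0.998 against 0.05 over all genes. Neither encodes a structural part of the complex: they were Mael, a piRNA pathway gene, with 352, 370 and 495 CPM in ECKO against 63.6, 147, 87.8 and 68.3 CPM in Control (log2 fold change 2.15, adjusted p = 0.00965), and Tex15, needed for meiotic recombination and transposon silencing (1.52, adjusted p = 0.0342). Of 19 recombination genes only Mei1, which is needed for meiotic double-strand breaks, was called: 15, 76 and 74 counts in ECKO against 0 in all 4 Controls, at least 74.4-fold higher against a floor of 3 counts over the Control group. Of 3 further meiotic cohesin genes and 4 telomere attachment genes none was called there. The 14 cohesin genes used in all dividing cells gave 0 calls in each of the 5 ECKO comparisons, with a median of -0.74 at E13.5, against 0.05 over all genes. In Controls at E13.5 against E11.5, 9 of these 14 rose, against 15.8% of all genes, and 1 fell, against 15.7%. Smc3, the partner of the SMC1 proteins, was among those that rose (log2 fold change 1.54, adjusted p = 0.000309).

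Of the 13 meiotic entry genes tested in E11.5 XY, 2 rose in ECKO, Stra8 and Rarb, a retinoic acid receptor that is itself a retinoic acid target (log2 fold change 2.93, adjusted p = 0.0427), and 0 fell, where 2.13% of all genes were called in either direction. At E13.5 Rarb was at 0 to 0.11 CPM in ECKO and at 0 in Control, and Stra8 was at 1.10, 2.79 and 2.03 CPM in ECKO, against 0.44 CPM in Control 2 and 0 counts in the other 3 Controls. Both were too low to be tested at the stage at which Sycp1 and Tex12 were called. Bmpr1a, a BMP receptor, fell there (-1.49, adjusted p = 0.0303).

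Across the 22 bulk libraries the members did not form a single block. Spearman's rho of log2 CPM was highest between Sycp1 and Sycp3 (0.85) and lowest between Sycp1 and Syce2 (-0.74), and Rec8 reached 0.48 with Sycp1 and -0.14 with Hormad1. These libraries share stage, sex and genotype groups and differ in depth, so the values are descriptions. Among 10418 other genes with a mean of at least 5 CPM, those most like the mean of the 9 members tested in all tables were 2310035C23Rik (rho 0.92), 1700063D05Rik (0.89), Scml2 (0.89), Sbno1 (0.88) and Brdt (0.88). Brdt is a testis bromodomain gene and Scml2 a germline Polycomb-type gene.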

How the data were processed

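PGCs were sorted as GFP-positive cells after trypsin digestion of gonads. For bulk libraries, RNA from an RNeasy Micro kit was amplified by Ovation RNA-seq V2, while single cells went through Smart-seq2, per the labels' protocols. The deposited values are counts per gene symbol, 1 column for each bulk library or cell. HISAT2, edgeR and the mm9 build are named per the submitters' processing notes. No annotation, counting program or strand setting is named there. The 8 bisulfite libraries were not analysed here.

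The 10 members and the gene lists were chosen with earlier results of these data known. Separate edgeR 4.0.16 fits (R 4.3.3) were made for the 3 bulk tables, with filterByExpr, TMM scaling, the quasi-likelihood F test and Benjamini-Hochberg adjustment over all genes tested. The SE is the log2 fold change divided by the root of F. Interactions and the Control stage contrast used joined tables. E12.5 counts of cells with at least 50000 counts and 1500 genes were summed per embryo, and the 8 embryos were fitted together. Printed CPM are the counts scaled by TMM over all 22 bulk libraries, or over the 8 embryos. DESeq2 1.42.0 was an alternative. The labels do not say that replicates came from separate animals, so p-values measure the spread between libraries, which may be technical. Replicates of a group differed by more than counting error (chi-square per degree of freedom 4.49 to 192).

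Embryos are lettered by the order of the codes in the column names, which could not be matched to the embryo numbers in the titles. A single XX cell is titled ECKO and labelled wild type. Its column could not be told, and an alternative left out cell 24 of both XX ECKO embryos. Intervals of cell shares are exact (Clopper-Pearson, 95%), and beside 0 cells stands the upper limit of that interval. Both cover counting error only, since reads here carry no molecular identifiers and are not independent molecules. The scripts were tested on simulated data. The text names every member, Eed and Stra8, up to 4 called genes a list, and the 5 genes most like the members. Promoter sequences are RefSeq windows on GRCm38.p6, matched by symbol for all 10 members, with 2 windows each for Syce2 and Hormad1. Genes that overlap a member were taken from RefSeq by name.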

Additional observations from a re-analysis of the deposited data

Results flagged for a closer look

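Within groups of 4 libraries, the highest or lowest value of a gene was compared with the nearest other value relative to the group's range (Dixon's rule). Of 40 such groups, 7 had a library that stood apart, where about 2 would be expected for independent and normally distributed values. The groups reuse the same libraries and CPM need not be normally distributed, so an excess was not tested.

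In E13.5 XY Control, library 3 stood apart for Hormad1 (234 CPM) and Smc1b (1312 CPM), and it was also the highest Control for Sycp1, Sycp2, Sycp3 and Hormad2. It had 11716 detected genes, against 13900 to 15154 in the other 3 Controls. Its supporting cell markers summed to 295 CPM, against 13.1, 10.1 and 76.8 CPM in Controls 1, 2 and 4. In E11.5 XY ECKO, library 2 stood apart for Tex12 (15.4 CPM), and in E11.5 XY Control library 2 did so for Tex12 (4.38 CPM). In E11.5 XX ECKO, library 2 was far above the rest for Sycp2 (28.4 CPM), library 3 for Hormad1 (10.8 CPM), and library 4 was far below the rest for Syce2 (80.1 CPM). No difference of an ECKO effect between sexes or stages passed the test for a member.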

How the results depend on the processing

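Over 89 member results and their 1302 alternatives, 1218 kept their direction and side of the threshold, 13 lost and 17 gained a call, and 54 changed sign, in 24 results. With DESeq2, the members called were 1 in E11.5 XY, 2 in E11.5 XX, 4 in E13.5 XY, 2 in E12.5 XX and 1 in E12.5 XY. Over all genes DESeq2 called 759, 315, 1702, 917 and 326 in the same order. Without a filter on low counts the members called were 1 in E11.5 XX, 4 in E13.5 XY and 1 in E12.5 XX. Over all genes 217, 1268 and 566 were called in these 3 fits. Leaving out 1 library at a time gave 0 to 5 called members in E13.5 XY, where 94 to 2141 of all genes were called. Without Control 3 there were 4 (Rec8, Sycp1, Sycp3 and Tex12), among 720 genes in all. Without ECKO 1 there were 5 (Hormad1, Smc1b, Syce2, Sycp1 and Tex12), among 2141 genes in all. RLE scaling gave the same 2 genes at E13.5 as TMM.

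Equal replicate numbers are not said to mark pairs, and same-numbered libraries correlated by -0.14 to 0.17 after removal of group means. With the replicate block, 0 members were called at E13.5 (Sycp1 2.00, adjusted p = 0.142, and Tex12 3.18, adjusted p = 0.191), where 68 of all genes were called against 604 without it. The block changed no other count of members. It was not run for the stage contrast, since replicates lie within a stage, nor at E12.5, where embryos carry no shared number.

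Every sign that turned belonged to a value that did not pass the test. When 1 library or embryo was left out, the log2 values of these genes had the following ranges. In E11.5 XY they ran from -0.044 to 0.28 for Syce1, -0.53 to 0.058 for Hormad1, -0.052 to 0.98 for Sycp3, -0.41 to 1.40 for Tex12 and -0.54 to 0.024 for Smc1b. In E11.5 XX they ran from -0.58 to 0.41 for Hormad2, -0.076 to 0.44 for Smc1b, -0.14 to 0.25 for Syce1 and -0.38 to 1.35 for Sycp3. In E13.5 XY Hormad2 ran from -0.65 to 0.025, and to 0.12 with the replicate block. In E12.5 XX they ran from -0.74 to 1.43 for Tex12 and -1.20 to 0.70 for Hormad2, and Tex12 was at 0.025 with DESeq2 or RLE scaling and 0.054 without cell 24. In E12.5 XY they ran from -1.75 to 1.76 for Sycp2 and -0.58 to 0.58 for Syce2. For the sex difference at E11.5 they ran from -0.27 to 0.15 for Syce1 (0.057 with the block), -0.029 to 1.45 for Sycp1, -1.01 to 0.80 for Sycp3 (0.34 with the block) and -1.26 to 1.07 for Sycp2. For the sex difference at E12.5 they ran from -0.62 to 1.60 for Sycp3, -0.56 to 0.76 for Smc1b and -0.86 to 0.29 for Syce2. The stage difference of the ECKO effect ran from -0.17 to 0.73 for Sycp2, and the Control stage contrast from -0.085 to 0.68 for Rec8 and -0.25 to 0.76 for Tex12. With 2 embryos a group, E12.5 fits without 1 embryo assume that the lone embryo varies like the other groups. Shares of cells are limited by 13 to 22 cells an embryo: 31 of 320 alternative shares left the spread of the main value, most of them at 1 CPM.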
